A study of Mus musculus with 32 samples.

Results

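The 36 genes described here act in the DNA damage response and in DNA repair, and they were chosen by symbol from a list of sensors, signalling kinases, recombination, Fanconi, end joining and replication-linked repair genes. A gene was measured through probe sets annotated to its symbol alone, and the probe set with the highest mean stood for the gene. Of the 36 genes, 34 had such a probe set among the 18194 genes named this way. Xrcc2 and H2afx had none and are not analysed here. Bard1, the binding partner of Brca1, had a mean of 5.71 (SD 0.32, n = 32 tumours), below the limit for dim probe sets of 5.78, and stayed out of the tests. The other 33 members were tested among 11228 genes that passed this limit.

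The RNA came from lymphomas of mice of the Eµ-myc genotype, which carry Myc under the enhancer of the antibody heavy chain locus, active in the B lineage. One array was hybridised for each of 32 tumours, numbered as in the labels, and no group without lymphoma was included. RNA had been taken from frozen tumour tissue or from dissociated tumour cells, without a label for which, and nothing states that each tumour came from a different mouse, so the p-values measure only the spread between these samples, which may be technical. All values are log2 expression levels of a probe set, on which a step of 1 is a doubling. The labelled B lineage was checked on its markers, and all 7 measured of 8 listed passed the limit for dim probe sets, among them Cd79b, a chain of the B cell receptor complex, at 11.11 to 12.63. Array medians lay between 5.72 and 5.80.

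DNA breaks and stalled replication forks activate the kinases Atm, Atr and the DNA-dependent protein kinase, whose targets Chek1 and Chek2 slow the cell cycle while repair proceeds. Breaks are joined directly by end joining, which in B cell precursors also completes immunoglobulin gene rearrangement, or are copied from the sister chromatid by homologous recombination during and after S phase. Myc drives cells into S phase and causes replication stress, and the Cdkn2a locus encodes a protein that activates p53 when Myc is high.

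Promoter sequence was examined because many of these genes are transcribed with the cell cycle. RefSeq start sites on GRCm38.p6 gave 31 windows of 250 bases before the start for 27 of the 36 members, and 32851 such windows for all genes. Both strands were searched for 4 motifs, none of which contains another. An E2F motif (TTTCCCGC, TTTCGCGC, TTTGCCGC or TTTGGCGC) was found in 5 of the 31 member windows (16.1%) and in 1.9% of all windows. The CCAAT box (CCAAT) was in 15 member windows (48.4%) and in 33.8% of all. The E-box that Myc can bind (CACGTG) was in 2 member windows (6.5%) against 6.0% of all, and the cell cycle homology region (TTTGAA) was in 1 (3.2%) against 16%. Those figures describe letters in a window, not binding. The windows shown are those of the 5 genes with an E2F match and of the members that hold the CCAAT box at 2 or more places. The latter are Chek2, Rad51ap1, Mre11a, Blm and Fanca with 2 each and Xrcc3 with 6. They read 5′ to 3′ along the gene, and capitals mark matches to any of the 4 motifs.
Chek2, chr5:110839733-110839982, plus strand: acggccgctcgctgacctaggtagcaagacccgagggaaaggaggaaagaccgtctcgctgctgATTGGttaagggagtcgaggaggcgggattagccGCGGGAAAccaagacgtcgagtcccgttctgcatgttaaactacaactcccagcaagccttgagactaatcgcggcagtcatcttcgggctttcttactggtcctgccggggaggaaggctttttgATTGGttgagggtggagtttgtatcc
Mdc1, chr17:35841248-35841497, plus strand: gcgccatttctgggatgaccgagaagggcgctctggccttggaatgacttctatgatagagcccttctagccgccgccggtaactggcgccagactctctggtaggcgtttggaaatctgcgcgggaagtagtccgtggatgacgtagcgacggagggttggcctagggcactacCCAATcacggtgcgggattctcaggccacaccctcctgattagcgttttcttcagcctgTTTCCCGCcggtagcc
Brca2, chr5:150522371-150522620, plus strand: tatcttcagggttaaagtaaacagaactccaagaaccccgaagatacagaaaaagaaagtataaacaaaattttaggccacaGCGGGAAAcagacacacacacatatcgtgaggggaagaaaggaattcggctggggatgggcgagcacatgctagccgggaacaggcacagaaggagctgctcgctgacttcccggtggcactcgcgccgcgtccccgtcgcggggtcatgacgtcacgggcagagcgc
Bard1, chr1:71102973-71103222, minus strand: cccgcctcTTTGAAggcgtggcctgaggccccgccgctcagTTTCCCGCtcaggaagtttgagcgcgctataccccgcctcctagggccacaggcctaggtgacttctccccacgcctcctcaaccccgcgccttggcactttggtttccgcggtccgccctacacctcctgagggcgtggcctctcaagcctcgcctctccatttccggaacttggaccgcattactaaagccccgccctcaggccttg
Xrcc6, chr15:82016119-82016368, plus strand: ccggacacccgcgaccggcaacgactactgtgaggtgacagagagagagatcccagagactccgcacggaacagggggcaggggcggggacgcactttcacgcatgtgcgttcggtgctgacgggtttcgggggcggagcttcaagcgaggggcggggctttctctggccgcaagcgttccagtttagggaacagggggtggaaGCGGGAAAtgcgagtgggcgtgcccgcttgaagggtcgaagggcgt
Rad51ap1, chr6:126939588-126939837, minus strand: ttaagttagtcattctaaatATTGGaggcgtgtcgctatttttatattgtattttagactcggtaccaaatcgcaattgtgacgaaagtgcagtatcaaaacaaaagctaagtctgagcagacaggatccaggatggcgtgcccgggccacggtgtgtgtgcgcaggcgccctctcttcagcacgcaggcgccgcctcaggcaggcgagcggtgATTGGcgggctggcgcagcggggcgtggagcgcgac
Mre11a, chr9:14784404-14784653, plus strand: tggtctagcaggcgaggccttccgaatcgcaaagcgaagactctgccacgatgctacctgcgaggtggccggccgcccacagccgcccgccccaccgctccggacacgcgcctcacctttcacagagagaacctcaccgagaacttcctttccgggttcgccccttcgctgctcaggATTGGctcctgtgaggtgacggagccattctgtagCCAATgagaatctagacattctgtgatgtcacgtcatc
Xrcc3, chr12:111813880-111814129, minus strand: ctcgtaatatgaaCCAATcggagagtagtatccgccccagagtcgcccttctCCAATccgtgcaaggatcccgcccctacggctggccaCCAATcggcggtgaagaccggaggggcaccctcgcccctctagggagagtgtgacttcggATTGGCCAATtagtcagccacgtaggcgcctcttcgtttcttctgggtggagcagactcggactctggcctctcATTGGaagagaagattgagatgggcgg
Blm, chr7:80534999-80535248, minus strand: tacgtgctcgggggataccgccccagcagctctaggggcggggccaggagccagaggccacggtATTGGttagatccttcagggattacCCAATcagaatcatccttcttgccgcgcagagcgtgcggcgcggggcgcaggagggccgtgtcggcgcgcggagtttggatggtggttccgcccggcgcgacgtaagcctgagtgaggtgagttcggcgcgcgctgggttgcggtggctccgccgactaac
Fanca, chr8:123318577-123318826, minus strand: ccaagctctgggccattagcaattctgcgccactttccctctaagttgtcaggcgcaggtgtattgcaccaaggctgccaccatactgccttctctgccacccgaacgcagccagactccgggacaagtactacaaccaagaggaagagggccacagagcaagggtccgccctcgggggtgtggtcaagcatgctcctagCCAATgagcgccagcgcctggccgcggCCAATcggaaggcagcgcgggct

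In the Brca2 window the match began 168 bases before the start site, in that of Chek2 152 bases, and in that of Xrcc6 46 bases. Mdc1 and Bard1 had theirs 16 and 209 bases before the start. Bard1 was too dim to test. The other 4 have their relation to the S phase of the cell cycle given with that of the other members.

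The repair genes differed modestly between tumours. Their median SD over the 32 tumours was 0.31, against 0.28 for all genes tested, and 22 of the 33 members lay above that median of all genes. Only 2 members, Xrcc6 and Lig4, had an SD over 0.5, as did 18.1% of all genes. They varied together: the median Pearson correlation over the 528 pairs of members was 0.38, against 0.01 for all genes, and 471 pairs (89.2%) were positive, against 50.8%. Pairs share tumours and arrays, so these figures are a description.

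A few tumours held many of the low values. Tumour 30 had the lowest level of 17 of the 33 members and was among the lowest 3 for 25. Tumour 24 was lowest for 6 members, and tumours 2 and 18 for 3 each. Among the lowest 3 were tumour 24 for 15 members, tumour 18 for 14, tumours 6 and 25 for 9 each and tumour 2 for 8. Tumour 30 was not low throughout, since it ranked 31 of 32 from the lowest for Brca1, 28 for Fancb and 23 for Lig4. The same tumour 30 had the lowest score of an S phase list, at -3.54, where the next lowest tumour, 24, was at -1.01. That score is the mean standardised level of 19 replication genes that are not members. The markers of other cell types moved too. Their score, averaged over T cell, myeloid and stroma markers, was highest in tumours 24, 30 and 2, at 1.60, 1.31 and 1.24. Tumours 24 and 2 had T cell scores of 3.17 and 2.64, and tumour 30 had myeloid and stroma scores of 2.09 and 2.04. Tumour 18, also low for many members, had an other-cell score of -0.28 and an S phase score of -0.22. Tumours 6 and 25 had other-cell scores of 0.22 and 0.83. In RNA from whole tumours, fewer cells of a type and less RNA per cell cannot be told apart. Counts that moved without 1 or all 3 of tumours 2, 24 and 30, those highest in other-cell score, are given both ways.

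**Figure D1:**
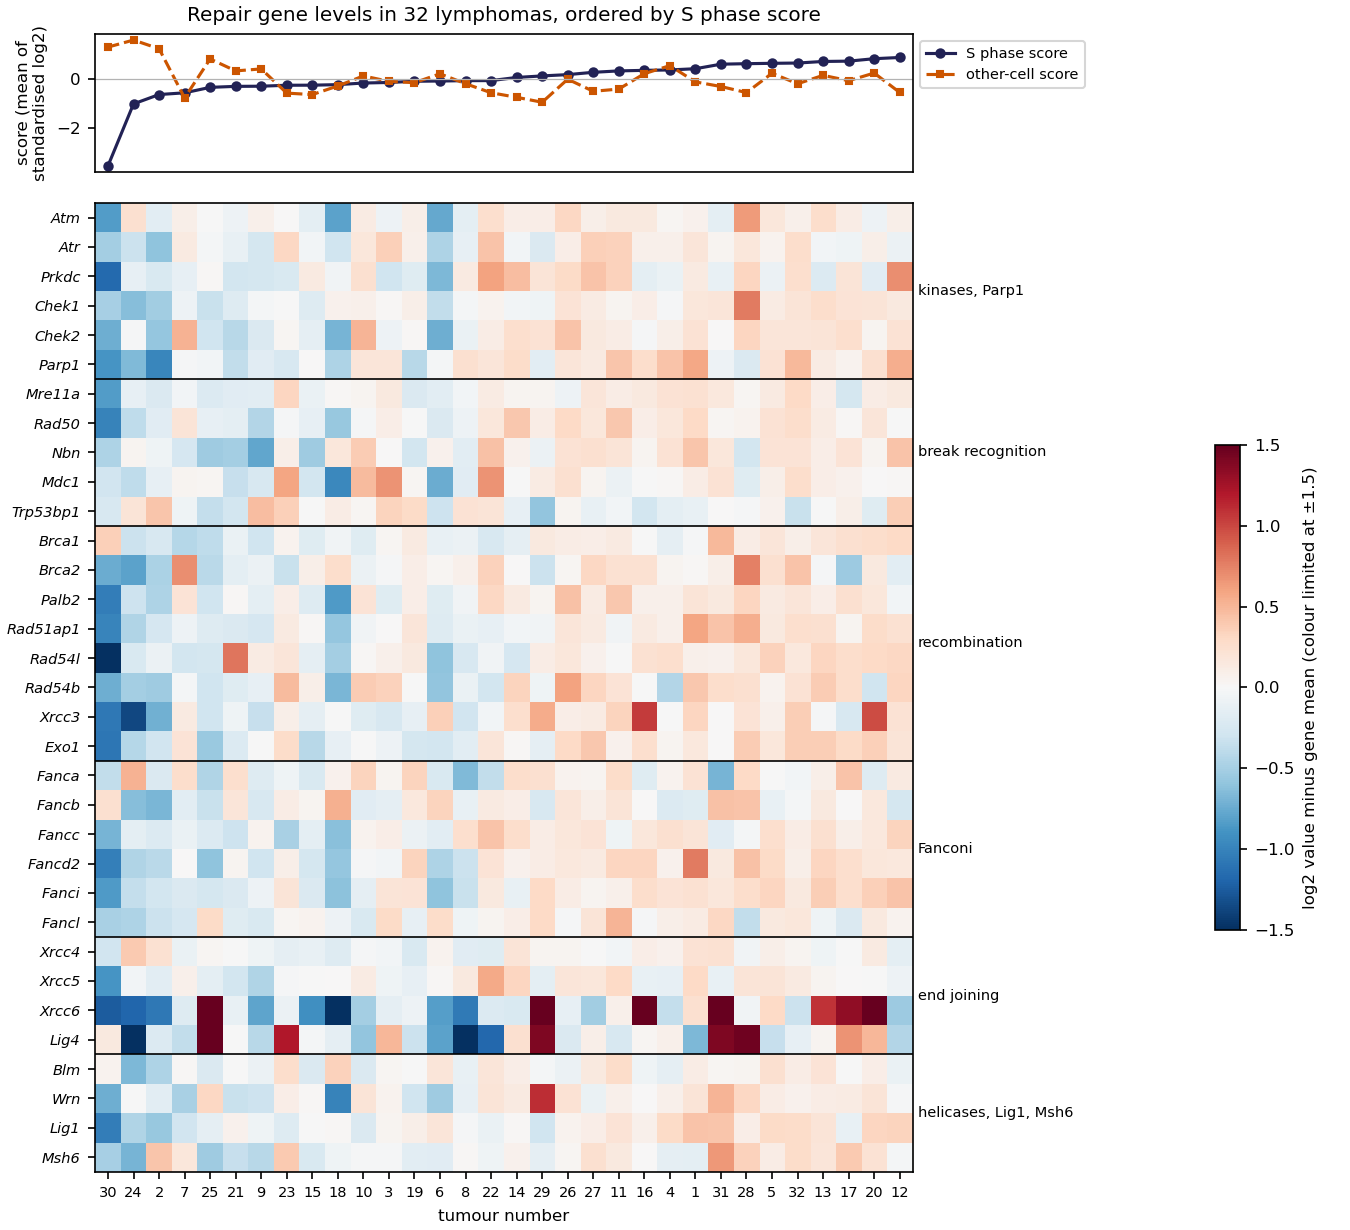
Log2 level of each of 33 repair genes minus its mean over 32 tumours (colour, limited at ±1.5), with tumours ordered by S phase score and genes by role. The upper panel gives the S phase score and the other-cell score of each tumour. Tumour 30, at the left, was lowest for 17 genes, and Xrcc6 and Lig4 show the strongest colours.

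Among the damage kinases, Atm, which responds to double-strand breaks, ran from 8.32 through a median of 9.24 to 9.80. Tumours 30, 18 and 6 were at 8.32, 8.36 and 8.40, and the next lowest tumour was at 9.0, so 3 tumours stood apart from the other 29. Another probe set of Atm gave 8.32, 8.25 and 8.31 in these 3 tumours. The median of all genes on chromosome 9, which holds Atm, was at 0.02, -0.04 and -0.02 there, relative to the mean of each gene. Atr, also on chromosome 9, was at 8.68, 8.89 and 8.72 in these tumours, all below its median of 9.24 but within the range of the other tumours. Chek1 and Mre11a lie on chromosome 9 too. Chek1 was at 8.82, 9.37 and 8.94 in tumours 30, 18 and 6 (median 9.36), and Mre11a at 7.42, 8.28 and 8.10 (median 8.30). Both were thus near their medians in tumour 18 and lower in the other 2. On other chromosomes, Chek2, Fanci, Wrn, Rad54b and Rad54l also had their 3 lowest levels in tumours 30, 18 and 6. Chek2 was at 7.70, 7.74 and 7.71 there. Blm and Fancb, in contrast, were above their medians in all 3.

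Atr, the kinase of stalled forks, ranged from 8.58 in tumour 2 through 9.24 to 9.62 in tumour 22. Its target Chek1 ran from 8.67 in tumour 24 through 9.36 to 10.09 in tumour 28, and Chek2, the target of Atm, from 7.70 in tumour 30 through 8.50 to 8.95 in tumour 7. Prkdc, the catalytic subunit of the DNA-dependent protein kinase, spanned 6.72 to 8.58 around a median of 7.81. Parp1, which binds strand breaks and marks nearby proteins with poly(ADP-ribose), went from 9.73 in tumour 2 through 10.79 to 11.29 in tumour 1. For Parp1 the 3 lowest tumours were 2, 30 and 24, the same 3 that were highest in markers of other cells.

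Mre11a, Rad50 and Nbn form the complex that binds and trims broken ends. Mre11a lay between 7.42 and 8.57 (median 8.30) and Rad50 between 8.21 and 9.62 (median 9.25), both lowest in tumour 30. Nbn lay between 7.14 in tumour 9 and 8.37 in tumour 22 (median 7.99). Mdc1, the scaffold that binds phosphorylated H2afx protein, ran from 7.01 in tumour 18 to 8.66 in tumour 22. Trp53bp1, which limits trimming of ends, lay between 9.10 and 10.14 (median 9.68), and its low and high tumours differed from those of the complex.

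Of the recombination genes, Rad54l, a motor protein that moves along DNA, was furthest below its median in tumour 30, with levels from 7.34 in tumour 30 through 8.95 to 9.67 in tumour 21. Xrcc3, a recombination factor, ran from 5.89 in tumour 24 through 7.26 to 8.30 in tumour 16, and its SD of 0.48 was the third largest of the members. Brca2, which acts after end trimming, spanned 8.38 to 9.94 (median 9.21). Low tumours for Brca2 were 24 and 30, and the high ones were 28 and 7. Brca1, which acts upstream of Brca2, was among the members with the smallest SD, 0.22, with a lowest level of 9.10 and a median of 9.54. Tumour 30 was at 9.88 for Brca1, above all tumours but 31. Palb2, the bridge between both, ranged from 7.57 to 9.04 and Rad51ap1 from 8.18 to 9.77. Exo1, a nuclease that trims ends, ranged from 7.98 to 9.46, and Rad54b from 5.80 to 7.14. All 4 of these last genes were lowest in tumour 30.

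The Fanconi genes remove crosslinks between DNA strands. Fancd2 and Fanci, the pair that the core complex marks with ubiquitin, ran from 6.31 to 8.11 (median 7.43) and from 7.07 to 8.35 (median 8.05), both lowest in tumour 30. Fancl, the ubiquitin ligase of the core complex, lay between 8.03 and 9.02, and Fancc between 6.47 and 7.60. Fanca and Fancb, also of the core complex, had other low tumours: Fanca ran from 8.01 in tumour 31 to 9.22 in tumour 24, and Fancb from 6.44 in tumour 2 to 7.66 in tumour 18. Thus 4 of the 6 Fanconi members were lowest in tumour 30.

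End joining held both the widest and the narrowest ranges. Xrcc6, the smaller subunit of the Ku ring that binds broken ends, ran from 8.31 in tumour 18 through 9.67 to 12.21 in tumour 31, a 14.9-fold span (SD 0.998, n = 32). Lig4, the ligase that seals the ends, ran from 6.27 in tumour 24 through 7.98 to 9.63 in tumour 25, a 10.3-fold span (SD 0.81). Its binding partner Xrcc4 had the smallest SD of all members, 0.15, with levels from 6.30 to 6.99. Xrcc5, the larger Ku subunit, spanned 7.45 to 8.91 (median 8.34). Of the helicases, Blm lay between 7.80 and 8.82 (SD 0.21) and Wrn between 6.36 in tumour 18 and 8.47 in tumour 29. Lig1, which joins fragments of the lagging strand, spanned 9.62 to 11.08 (median 10.70) and Msh6, which recognises mismatches, 9.17 to 10.52.

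The first relation asked for was that with Myc itself, the driver in this model. Myc ran from 9.81 in tumour 2 through 11.34 to 12.30 in tumour 7. Over all 32 tumours 4 of the 33 members rose with Myc (12.1%) and 0 fell, where 10.4% of all genes rose and 9.67% fell. The share that rose was thus near that of all genes, and the share called in either direction was below their 20.1%. The 4 were Atr, Blm, Fancb and Brca2. Slopes are given per SD of the axis, with standard errors and with p-values from limma adjusted over all genes. Atr rose by 0.15 ± 0.04 (adjusted p = 0.00511) and Blm by 0.13 ± 0.03 (adjusted p = 0.00464). Fancb rose by 0.15 ± 0.04 (adjusted p = 0.0163) and Brca2 by 0.16 ± 0.06 (adjusted p = 0.037). Each is a change of 1.09-fold to 1.12-fold per SD of Myc.

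The slopes on Myc were small but mostly of one sign. Of the 33 members, 29 had a positive slope (87.9%), against 56.7% of all genes, and the median slope was 0.08 against 0.01. Chek1 (0.11, adjusted p = 0.0676) and Xrcc3 (0.20, adjusted p = 0.069, both from limma) did not pass. Trp53bp1 and Xrcc4 had negative slopes of -0.09 and -0.06 that did not pass either. The count rested on few tumours. Without tumour 2 it was 1, without tumour 24 it was 2, and without tumour 30 it was 13. Of all genes 10.6%, 13% and 25.8% were called there in either direction. Without tumour 2 or 24 the share of members called was thus below that of all genes. The call of Brca2 was lost when any 1 of 7 tumours was left out, that of Fancb without tumour 2 or 24, and that of Atr without tumour 2. With the other-cell score as a covariate 0 members were called, and without tumours 2, 24 and 30 only Atr was (slope 0.12, adjusted p = 0.0287, limma). In these 2 fits 3.24% and 8.62% of all genes were called. The part of other cells in these slopes was not tested.

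Other genes of these pathways, 96 from lists of replication-linked recombination, Fanconi, end joining, excision and mismatch repair, were set against Myc as well. Of the 84 that passed the limit, 13 rose (15.5%) and 3 fell (3.57%), and 73.8% had a positive slope. Of all genes 10.4% rose and 9.67% fell, and 56.7% had a positive slope. In the end joining list 5 of 12 slopes were positive. The 4 called genes with the largest moderated t all rose. Topbp1, which activates Atr, rose by 0.14 ± 0.03 and Atrip, the partner protein of Atr, by 0.17 ± 0.04 (adjusted p = 0.000865 and 0.00152, limma). Paxip1, a break response protein, and Timeless, a fork protection factor, rose by 0.13 ± 0.03 and 0.15 ± 0.04.

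**Figure D2:**
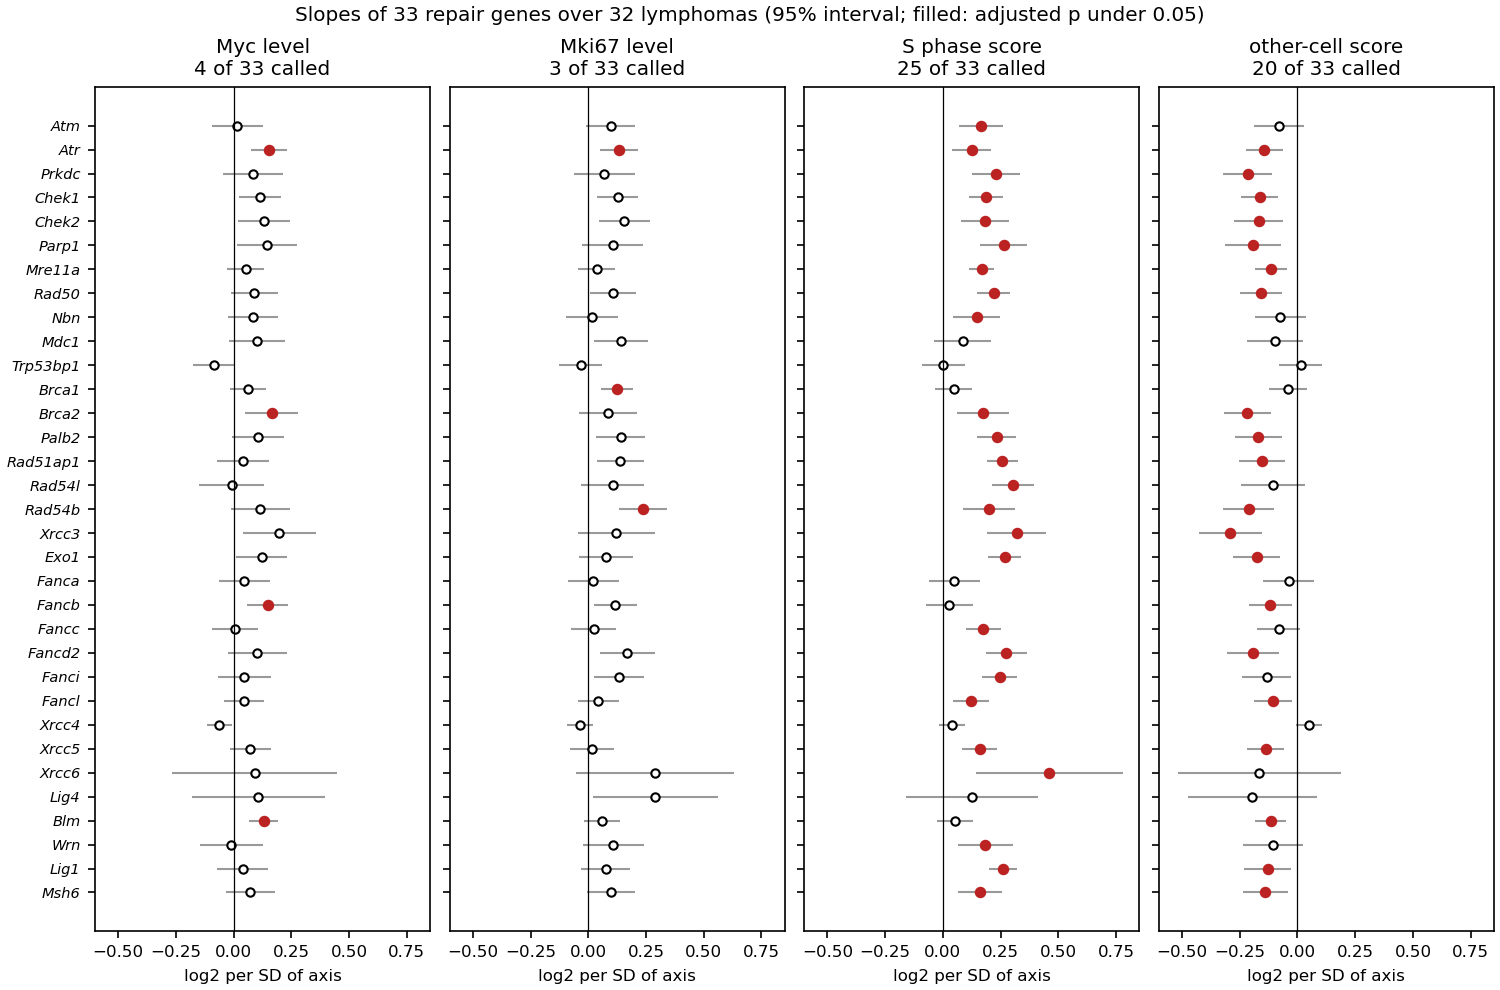
Slope of each of 33 repair genes over 32 tumours on 4 axes, in log2 units per SD of the axis, with 95% intervals. Filled red points passed an adjusted p of 0.05 (limma, over all genes): 4 with Myc, 3 with Mki67, 25 with the S phase score and 20, all with negative slopes, with the other-cell score.

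Mki67, which encodes a protein of cycling cells, varied little, from 12.04 in tumour 2 through 12.45 to 12.70 in tumour 31. Over the 32 tumours 3 members rose with it (9.09%) and 0 fell, against 2.96% of all genes rising and 4.1% falling. Rad54b rose by 0.24 ± 0.05 (adjusted p = 0.00576), Brca1 by 0.12 ± 0.03 (adjusted p = 0.0267) and Atr by 0.13 ± 0.04 (adjusted p = 0.0401, limma). Positive slopes were found for 31 members. The call of Rad54b was kept when any one tumour was left out, and that of Atr was lost when any 1 of 11 tumours was left out. The count ranged from 1, without tumour 2, 9 or 24, to 11, without tumour 30. The share of all genes called ranged from 1.78% to 12.8% with each tumour left out in turn. The count of members was 6 without tumour 15. Without tumours 2, 24 and 30 only Rad54b was called (slope 0.22, adjusted p = 0.0175, limma), and with the other-cell score as a covariate 0 were. There 1.75% and 1.09% of all genes were called in either direction. Of the 84 other pathway genes, 4 rose with Mki67. They were Neil3 and Xrcc1 of base excision repair, Rmi1, a partner of Blm, and Parp2, a relative of Parp1. Neil3 had the steepest slope, 0.28 ± 0.06 (adjusted p = 0.0062, limma).

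The S phase score, added after the first results were seen, called more of the members than Mki67 did. With this score 25 of the 33 members rose (75.8%) and 0 fell, against 15.2% of all genes rising and 9.59% falling, and all 33 slopes were above 0. The median slope was 0.17, against 0.01 over all genes. By role, the 5 kinases and Parp1 all rose, as did 7 of 8 recombination genes, 4 of 6 Fanconi genes and 3 of 5 break recognition genes. So did 2 of 4 end joining genes and 3 of 4 helicases and other genes. For Atr the rise rested on its brightest probe set, as its 2 dimmer ones had slopes of -0.017 and -0.001. Its call was lost in 7 of 14 alternatives and also without tumour 30 (adjusted p = 0.159, limma). Fancc likewise had slopes of 0.03 and 0.012 on its 2 dimmer probe sets, against 0.17 on the chosen one. The call of Fancl was lost in 7 of 14 alternatives and that of Nbn in 6.

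The steepest called slope was that of Xrcc6 (0.46 ± 0.16, adjusted p = 0.0288), whose call was lost without tumour 24 (adjusted p = 0.0505, limma). That call was also lost in 5 of 14 alternatives, among them averaged probe sets and the chromosome median or the other-cell score as a covariate. The dimmer probe set of Xrcc6 had a slope of 0.21. The smallest p-value was that of Lig1 (0.26 ± 0.03, adjusted p = 6.85e-07, limma). For Lig1, tumours 30, 2 and 24 were lowest, at 9.62, 10.08 and 10.20, and tumours 1, 31 and 12 highest, at 11.08, 11.06 and 10.98. Rad51ap1 rose by 0.26 ± 0.03 (adjusted p = 3.45e-06), Exo1 by 0.27 ± 0.04 (adjusted p = 5.62e-06) and Rad54l by 0.30 ± 0.04 (adjusted p = 1.56e-05, limma). Fanci and Fancd2 rose by 0.25 ± 0.04 and 0.27 ± 0.04. Members that did not pass were Xrcc4, Mdc1, Blm, Brca1, Fanca, Lig4, Fancb and Trp53bp1. Among them are 2 of the 4 genes called with Myc, Blm (0.05) and Fancb (0.03), and Brca1 (0.05, adjusted p = 0.416, limma). Whether their slopes on the axes differ was not tested.

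Much of this count came from the tumours with the lowest scores. Without tumour 30 it was 17, when 16.4% of all genes were called in either direction, and without tumours 2, 24 and 30 it was 7, when 4.32% were. The 7 were Lig1, Chek1, Rad51ap1, Exo1, Fanci, Fancd2 and Brca1. Brca1 gained its call there. Its slope was 0.05 ± 0.04 in all 32 tumours and 0.16 ± 0.03 in the 29 without these 3 (adjusted p = 0.00151, limma), the smallest p-value of the members there. Without tumour 30 alone it was 0.17 ± 0.03 (adjusted p = 0.000293, limma), and Blm was called there too (0.11 ± 0.04, adjusted p = 0.0385, limma). Tumour 30, with the lowest score, was high in Brca1, as given above. With the other-cell score as a covariate the count was 17 (15.4% of all genes), and without the 11 tumours with salivary transcripts it was 12 (8.76%). Those 11 include tumours 18, 25 and 30, so leaving them out also leaves out tumour 30. Of the 84 other pathway genes, 44 rose with the score (52.4%) and 1 fell, against 15.2% of all genes rising and 9.59% falling. Apex1, a nuclease of base excision repair, rose by 0.26 ± 0.03 and Wee1, a kinase that holds back mitosis, by 0.18 ± 0.02 (adjusted p = 6.85e-07 and 5.62e-06, limma). Rif1, which protects ends with Trp53bp1, and Uhrf1, which binds hemimethylated DNA, rose by 0.17 ± 0.02 and 0.36 ± 0.05.

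Against the markers of other cells the members went the other way. With the other-cell score, also added later, 0 members rose and 20 fell (60.6%), where 14.2% of all genes rose and 15% fell. Xrcc3 fell by 0.29 ± 0.07 per SD and Brca2 by 0.22 ± 0.05 (adjusted p = 0.00163 and 0.00167, limma). Chek1 fell by 0.16 ± 0.04 and Prkdc by 0.22 ± 0.05. Trp53bp1 and Xrcc4 had slopes of 0.01 and 0.05 that did not pass. This count rested on few tumours. Without tumour 30 the members called were 9 of 33, where 25.7% of all genes were called in either direction, so the share was then near that of all genes. Of the 9, 8 fell and Xrcc4 rose (0.08 ± 0.02, adjusted p = 0.0184, limma). Without tumour 24 the count was 13, against 20.9% of all genes. With the 2 most extreme scores left out it was 2, a smaller share than the 16.1% of all genes. Of the T cell list 5 of 10 markers passed the limit, of the myeloid list 11 of 12 and of the stroma list 10 of 10. Across tumours the median level of those markers ran from 5.68 to 9.04, from 8.71 to 11.81 and from 7.99 to 10.86. Of the 84 other pathway genes 34 fell and 0 rose, among them Paxip1 (-0.16 ± 0.03, adjusted p = 6.59e-05, limma).

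Cdkn2a fell into separate clusters. It lay between 3.79 and 8.51 in 29 tumours and at 10.70 or above in tumours 7, 14 and 23, so the slope was fitted in the 29. Many of the 29 lay below the limit for dim probe sets, such as tumours 28, 30 and 15 at 3.79, 4.13 and 4.14. Differences among levels that dim may be background signal, so the fit cannot tell whether members follow Cdkn2a there. With limma 0 members were called in either direction, as were 0% of all genes rising and 0% falling, and 2 members (6.06%) had an unadjusted p under 0.05, against 10.5% of all genes. Those were Lig4, with a slope of -0.46 ± 0.12 (adjusted p = 0.211), and Nbn, with 0.12 ± 0.06 (adjusted p = 0.446). Robust regression called 1 member, Lig4 (adjusted p = 0.0465, limma), where 1.43% of all genes were called. In the 3 tumours of the upper cluster Lig4 was at 7.68, 8.28 and 9.25, which spans much of the range of the other tumours. Nbn there was at 7.67, 7.99 and 8.01.

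**Figure D3:**
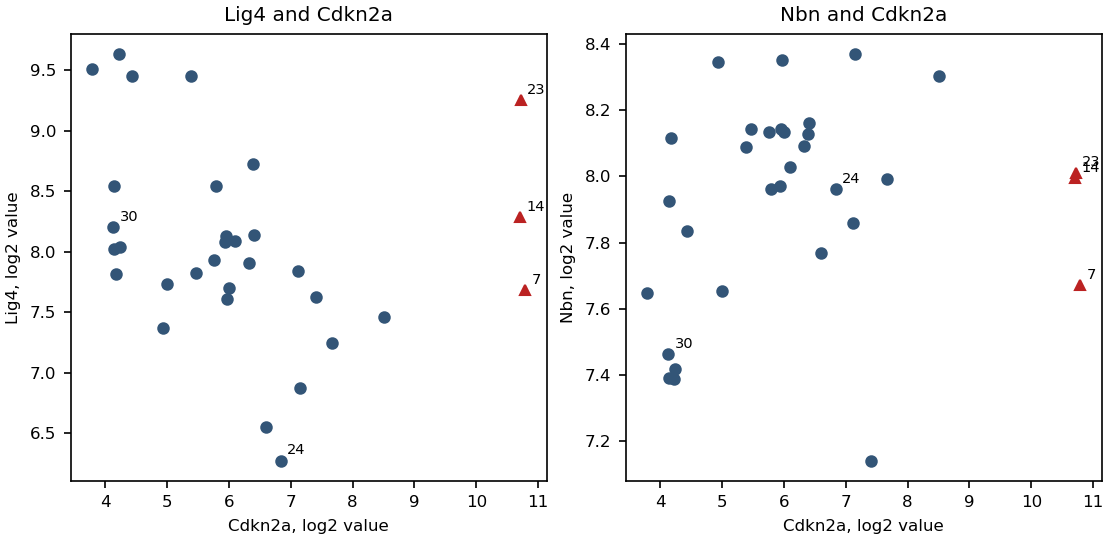
Log2 level of Lig4 (left) and Nbn (right) against that of Cdkn2a in 32 tumours. Blue circles are the 29 tumours of the fit and red triangles the 3 with Cdkn2a at 10.70 or above. In the 29 tumours the adjusted p was 0.211 for Lig4 and 0.446 for Nbn.

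Nbn lies on chromosome 4, as Cdkn2a does. In tumour 28, where Cdkn2a was lowest, the median of chromosome 4 was -0.28, and Nbn was at 7.65, Rad54l at 9.05 and Rad54b at 6.78 (all on chromosome 4). Only Nbn of these 3 was below its median there. Rag1, which starts immunoglobulin gene rearrangement, ran from 3.38 in tumour 30 through 7.53 to 12.02 in tumour 25. With limma 0 members were called with Rag1, against 0.0891% of all genes rising and 0.0267% falling. At an unadjusted p under 0.05 the count was also 0, against 10.2% of all genes. The end joining genes Xrcc4, Xrcc5, Xrcc6 and Lig4 were thus not called with Rag1. Its level spanned more than 8 log2 units, but the lower part of this range was below the limit for dim probe sets. Tumours 30, 2 and 32, for example, were at 3.38, 3.40 and 3.62. Differences among levels that dim may be background signal.

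Chromosome gains and losses are common in lymphomas, so each member was set against the median of the other genes on its own chromosome. Of the 33 members 13 rose with it (39.4%), against 26.5% of all genes rising and 2.36% falling. With arrays shifted by reference genes the count was 5, and with the other-cell score as a covariate 6, both smaller shares than those of all genes (27.2% and 24.1% in either direction). Xrcc6 rose by 0.72 ± 0.12 per SD of the chromosome 15 median (adjusted p = 5.37e-05) and Xrcc3 by 0.33 ± 0.06 per SD of that of chromosome 12 (adjusted p = 0.000157, moderated with limma). Both calls were kept when any one tumour was left out. The medians of these chromosomes fall into clusters, with 5 tumours high for chromosome 15 and 4 for chromosome 12. Fits without the upper cluster were added after the data were seen. In them Xrcc6 had a slope of 0.20 in 27 tumours that did not pass (adjusted p = 0.310, limma), while Xrcc3 kept its call in 28 (0.30, adjusted p = 0.000154, limma). Rad50 on chromosome 11 rose by 0.18 ± 0.04 and Brca2 on chromosome 5 by 0.20 ± 0.05. The others were Chek2, Fancl, Mdc1, Fancc, Prkdc, Palb2, Fanci, Atr and Wrn. Wrn had the largest of the called p-values (0.0449), and its call was lost when any 1 of 16 tumours was left out. No other chromosome holding members had a median in separate clusters. In some tumours several medians moved together: tumour 24 was at -0.06, -0.06, -0.17 and -0.16 for chromosomes 4, 9, 12 and 15. In tumour 28, by contrast, chromosome 4 was at -0.28 and chromosome 9 at 0.01. Whether these slopes reflect chromosome copies or a shift of the whole array was not tested.

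For Xrcc6 the high tumours were 31 (12.21), 25 (11.75), 29 (11.45), 16 (11.43), 20 (11.33), 17 (11.16) and 13 (10.91), and the next was at 10.12. In 5 of them, tumours 31, 13, 16, 20 and 17, the chromosome 15 median was between 0.22 and 0.30, where no other tumour was above 0.03. Myc lies on chromosome 15 as well. In tumours 25 and 29 the chromosome 15 median was -0.08 and -0.06, so the high Xrcc6 level there came without a shift of the chromosome. A second, dimmer probe set of Xrcc6 followed the first (r = 0.90 over 32 tumours, as a description) and was highest in tumours 25, 31 and 29, at 7.98, 7.94 and 7.61. For Xrcc3, tumours 16 and 20 were at 8.30 and 8.24 with chromosome 12 medians of 0.25 and 0.32. Tumours 6 and 32 had chromosome 12 medians of 0.22 and 0.34 with Xrcc3 at 7.61 and 7.63, above its median of 7.26.

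**Figure D4:**
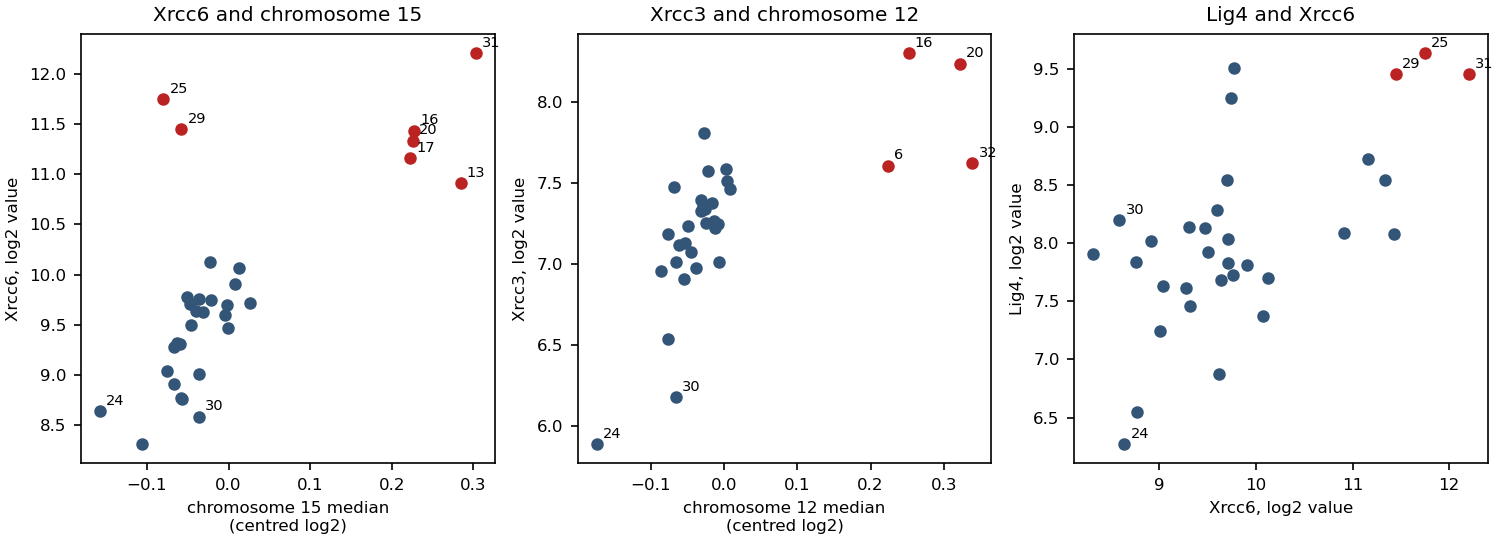
Log2 level of Xrcc6 against the median centred level of all tested chromosome 15 genes (left) and of Xrcc3 against that of chromosome 12 (middle). The right panel gives Lig4 against Xrcc6, and each panel has 1 point per tumour. Red points with numbers are the tumours with a high chromosome median (left, middle), tumours 25 and 29 (left), and tumours 25, 29 and 31 (right). Tumours 24 and 30 are also numbered. Tumours 25 and 29 have high Xrcc6 with chromosome 15 medians of -0.08 and -0.06.

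The member with the largest SD, Xrcc6, was then used as an axis, a choice made after its values were seen. Of the other 32 members 5 rose with it, against 6.84% of all genes rising and 4.84% falling. Lig4 rose by 0.51 ± 0.11 (adjusted p = 0.003), Wrn by 0.25 ± 0.05 (adjusted p = 0.00175) and Fanci by 0.18 ± 0.05 (adjusted p = 0.00974, limma). Rad51ap1 and Xrcc3 rose by 0.15 ± 0.05 and 0.23 ± 0.07. Lig4 was called in all 14 alternatives run and whichever 1 tumour was left out, with adjusted p-values from 0.000793 to 0.0331 over the alternatives (limma). Wrn and Fanci were also called whichever tumour was left out, though Wrn lost its call without the 11 tumours with salivary transcripts (adjusted p = 0.117) and Fanci without the 5 with a high chromosome 15 (adjusted p = 0.0813, limma). The calls of Rad51ap1 and of Xrcc3 were each lost when any 1 of 7 tumours was left out. The count was 3 without tumour 2, 20, 24 or 30 and 13 without tumour 25. With each tumour left out in turn, 8.97% to 16.7% of all genes were called in either direction.

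Lig4 and Xrcc6 were high together in tumours 25, 29 and 31. Lig4 was at 9.63, 9.45 and 9.45 there, and Wrn at 7.67, 8.47 and 7.87, its highest values with tumour 28. Tumours 28 and 23 had Lig4 at 9.51 and 9.25 with Xrcc6 at 9.77 and 9.74, near the Xrcc6 median. Tumours 16 and 13, in turn, had Xrcc6 at 11.43 and 10.91 with Lig4 near its median. Over all genes, those most like Xrcc6 by moderated t over the 32 tumours were Prep, Slc43a1, 2810039B14Rik, Desi1, Rrm2b and Rgcc. Of these 2810039B14Rik, Desi1 and Rrm2b lie on chromosome 15. Those most like Lig4 were Otub2, Rrm2b, Slc12a3, Smarca4, Ktn1 and Cyfip2, so Rrm2b was on both lists, with slopes of 0.45 ± 0.05 on Xrcc6 and 0.44 ± 0.06 on Lig4.

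Genes whose proteins act as a complex or as kinase and target were examined in 11 pairs, of which 9 had both genes tested. In 5 pairs the partner rose with its anchor. Fanci rose by 0.28 ± 0.03 per SD of Fancd2 (adjusted p = 2.26e-07, limma) and ranked 10 among all genes, of which 20.3% rose. Tumour 30 was lowest for both, and tumours 18 and 6 were low for both. Mre11a and Nbn rose with Rad50 by 0.16 ± 0.03 and 0.16 ± 0.05 (adjusted p = 0.000111 and 0.0143), as did 20.3% of all genes. Chek1 rose with Atr by 0.17 ± 0.04 (adjusted p = 0.00255, background 16.2%) and Palb2 with Brca2 by 0.16 ± 0.05 (adjusted p = 0.0354, limma, background 7.78%). Only the call of Palb2 was lost when 1 tumour was left out.

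The end joining partners gave no such call. Per SD of Xrcc5, Xrcc6 had a slope of 0.06 (95% interval -0.30 to 0.41), where 10.9% of all genes rose. Per SD of Xrcc4, Lig4 had a slope of -0.01 (95% interval -0.30 to 0.28), where 0.00891% of all genes rose. These intervals are wide and do not show that the partners vary independently. Fancl had a slope of 0.04 on Fancb (4.6% of all genes rising). Chek2 had a slope of 0.15 ± 0.04 on Atm in the 29 tumours outside the low Atm cluster (adjusted p = 0.121, limma), where 0% of all genes rose. The tumours left out there, 30, 18 and 6, had the 3 lowest levels of Chek2, at 7.70, 7.74 and 7.71.

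**Figure D5:**
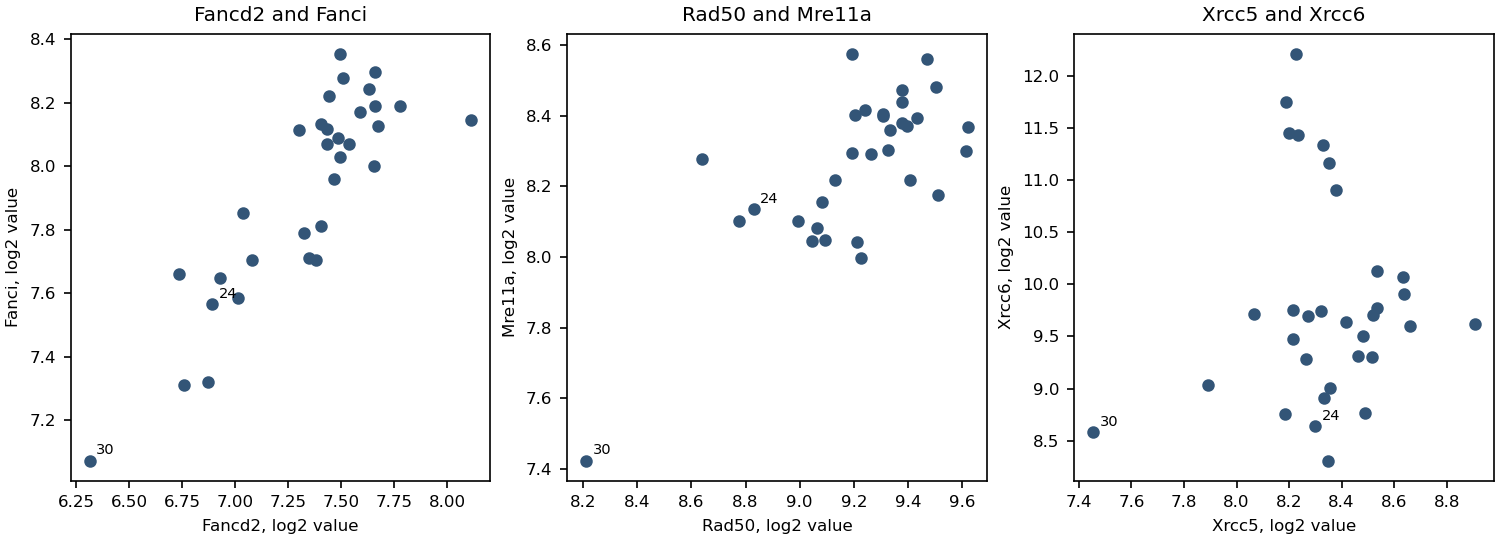
Log2 level of Fanci against Fancd2, of Mre11a against Rad50 and of Xrcc6 against Xrcc5, 1 point per tumour, with tumours 24 and 30 numbered. The first 2 pairs passed an adjusted p of 0.05 and Xrcc6 with Xrcc5 did not. Tumour 30 is lowest on both axes in the first 2 panels.

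Probe sets of one gene mostly moved together. The members had 42 further probe sets, of which 27, in 16 members, passed the limit for dim probe sets. Their median correlation with the chosen probe set was 0.82 over the 32 tumours, and 22 of the 27 were over 0.5. The lowest, 0.14, belonged to Fancc. Dimmer probe sets of Atr also followed the chosen one weakly, at 0.36 and 0.27. Rad54b is also named on 2 probe sets shared with Fsbp, which were not used.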

How the data were processed

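The deposited values are log2 levels, which the authors computed with affy and RMA, per the submitters' processing notes. Versions and parameters were not given in the sources used here. RMA equalises arrays, so a change common to nearly all genes is removed. Probe sets were named from the platform annotation given. Those averaging at least 5.78, the median over all 45101, were kept, 1 per gene.

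Slopes on each axis, scaled to an SD of 1, were fitted over all genes with limma 3.58.1 (lmFit, eBayes) in R 4.3.3 and Benjamini-Hochberg adjustment, with a threshold of 0.05. Where a gap of 25% or more of an axis's range had 3 or more tumours either side, the larger cluster was fitted. This was not applied to chromosome medians, where fits without the upper clusters of chromosomes 12 and 15 were added. Slopes on a gene's own chromosome used least squares with limma's squeezeVar. Scores were mean standardised log2 levels. The steps were tested on simulated data. With 200 genes following Myc among 11228, limma found 94% of slopes of 1 gene SD and 23% of those of 0.5 gene SDs, and 7.14% of its calls were false. Motifs and figures used Python 3.11.15.

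The members and lists were chosen with earlier results of these data known. The S phase score, other-cell score and Xrcc6 axes were added after the first results. Named genes were members, with most depth for those called and for the 5 largest and smallest SDs, up to 4 called genes per axis from the pathway lists, and the axis genes.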

Additional observations from a re-analysis of the deposited data

How the results depend on the processing

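Of 117 counts of members under alternative settings, 74 stayed within 1.5 times the reported count, and 43 did not. The 74 include counts with Cdkn2a and Rag1 that stayed at 0, where at most 1.58% of all genes were called. Such counts had little room to differ. The causes were not tested. No slope of a named member with a call reversed in any alternative. With Myc (4 called) the count was 1 without the 2 tumours farthest from the axis median, 10 without the 11 tumours with salivary transcripts (the upper Bpifa2 cluster), 0 with the other-cell score as a covariate, 2 on ranks, 14 by robust regression, 1 with Mki67 as a covariate and 1 without the 3 tumours highest in other-cell score. The shares of all genes called in either direction were, in that order, 5.63%, 23.1%, 3.24%, 10.5%, 28.3%, 8.6% and 8.62%, against 20.1% in the main fit. The salivary cluster includes tumour 30. With Cdkn2a (0) it was 1 by robust regression, where 1.43% of all genes were called, against 0% in the main fit. With Mki67 (3) it was, in the order given for Myc, 0, 11, 0, 0 and 11 up to robust regression. It was then 0 with Myc as a covariate and 1 with the chromosome median as a covariate. It was 16 with a mitosis score and 25 with the S phase score in place of Mki67, and 1 without the 3 tumours. All genes had shares, in this order, of 0.463%, 11.4%, 1.09%, 0.73%, 14.5%, 0.249%, 4.18%, 17.3%, 24.8% and 1.75%, against 7.05% in the main fit. With the S phase score (25) it was 10 without the 2 farthest tumours, 12 without the salivary cluster and 7 without the 3 tumours. Of all genes 6.59%, 8.76% and 4.32% were called there, against 24.8% in the main fit. With the other-cell score (20) it was 2 without the 2 farthest tumours and 13 without the salivary cluster. It was 7 on ranks and 9 with Mki67 as a covariate. For these the shares of all genes were 16.1%, 27.3%, 21.3% and 19.9%, against 29.1% in the main fit. With Xrcc6 (5) it was 2 with probe sets averaged per gene, 3 with a filter at the 75th percentile and 3 after a second quantile normalization. It was 12 without the 2 farthest tumours, 3 without the salivary cluster, 11 on ranks and 8 by robust regression. It was 3 with Mki67 as a covariate and 2 without the 5 tumours with a high chromosome 15. All genes had shares, in this order, of 9.01%, 14%, 11.2%, 19.7%, 5.21%, 17.2%, 17.1%, 8.02% and 4.97%, against 11.7% in the main fit. With their own chromosome (13) it was 22 with mean probe sets, 7 without a filter and 20 with the stricter filter. It was 5 with arrays shifted by reference genes and 6 with the other-cell score. For these 5 settings the shares of all genes were 40.5%, 19%, 46.8%, 27.2% and 24.1%, against 28.8% in the main fit. Of the partners (5) it was 2 with mean probe sets, 3 without the 2 farthest tumours, 2 without the salivary cluster and 3 with the other-cell score.

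With each tumour left out in turn, the count ranged from 1 to 13 for Myc, 0 to 0 for Cdkn2a and for Rag1, 1 to 11 for Mki67, 17 to 25 for the S phase score, 9 to 21 for the other-cell score, 3 to 13 for Xrcc6, 9 to 15 for chromosomes and 4 to 5 for partners. The share of all genes called ranged from 10.6% to 25.8% for Myc, 0% to 0.0534% for Cdkn2a and 0.0445% to 0.383% for Rag1. It ranged from 1.78% to 12.8% for Mki67, 16.4% to 26.6% for the S phase score and 20.9% to 31.2% for the other-cell score. For Xrcc6 it was 8.97% to 16.7% and for chromosomes 25.5% to 30.7%. The labels give 1 group, so no paired analysis was possible. The number of arrays limits the precision, with 1 array per tumour and no control tissue.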
